A study of Homo sapiens with 6 samples.

Results

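The mitochondrial ribosomal protein genes are nuclear genes whose products are imported into mitochondria. They were taken as the rows of the count table whose Ensembl identifiers belong to protein-coding genes in GENCODE 29 (GRCh38) with a symbol of MRPL or MRPS followed by a digit. The rule gave 78 of the 18318 genes in the table, 49 with large subunit symbols (MRPL) and 29 with small subunit symbols (MRPS). Of these, 77 had enough counts to be tested, among 12797 tested genes. The RNA came from the human melanoma cell line A375 and was sequenced after ribosomal RNA depletion. There were 3 libraries of cells transfected with a pcDNA3.1 plasmid carrying wild type SLNCR and 3 libraries of cells transfected with the vector backbone alone, here called empty vector. The long non-coding RNA SLNCR has the gene symbol LINC00673. Both groups carried the puromycin resistance gene and the CAG promoter of the plasmid and were kept for 48 h in 2 µg/mL puromycin, so the controls were transfected and selected as well. How the replicate cultures were kept apart is not given in the labels, so p-values measure the spread between these libraries, which may be partly technical.

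Mitochondria keep their own ribosome, which translates the few proteins encoded by mitochondrial DNA, all of them membrane subunits of the respiratory chain and the ATP synthase. Its ribosomal RNAs come from mitochondrial DNA, whereas every protein of the particle is made in the cytosol from nuclear genes and imported. The large subunit joins amino acids and holds the exit tunnel, and the small subunit binds the messenger and decodes it. Many of the proteins descend from bacterial ribosomal proteins, and others exist only in mitochondrial ribosomes. Symbols and positions do not match throughout: in structures of the human particle MRPS18A and MRPS30 belong to the large subunit, and MRPS36 is a subunit of the 2-oxoglutarate dehydrogenase complex and not a ribosomal protein.

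Library totals in the table lay between 9287450 and 10822083 counts. SLNCR was counted at 1786, 2569 and 2040 reads in SLNCR replicates 1, 2 and 3, against 195, 194 and 193 reads in empty vector replicates 1, 2 and 3 (log2 fold change 3.38, SE 0.147, edgeR adjusted p = 3.11e-05). The mean GC content of the gene counts, weighted by CPM (counts relative to library size, here scaled by TMM factors), was 48.5%, 48.72% and 48.16% in SLNCR libraries, against 49.46%, 49.22% and 48.98% in empty vector libraries, with no overlap. Across all genes this shift goes with the fold changes, so a log2 fold change with a correction for GC content stands beside each called member and each called gene of the pathway lists below. The labels call the cells epithelial. Of 10 epithelial markers, 9 had a row, and their summed level was 6.67 to 8.46 CPM in SLNCR and 7.05 to 9.85 CPM in empty vector libraries, with 7 of them below 1 CPM on average. MITF, the master factor of melanocytes, averaged 95.6 and 85.4 CPM in SLNCR and empty vector libraries, and SOX10 averaged 12.7 and 13.4 CPM. Of 8 melanocyte markers, 6 had a row (TYR and S100B did not), 3 were tested and 0 of these passed with edgeR. MLANA averaged 1.32 and 1.52 CPM in SLNCR and empty vector libraries. PMEL (0.844 and 0.323 CPM), DCT (0.441 and 0.143 CPM) and TYRP1 (0.626 and 0.599 CPM) were below 1 CPM. The summed level of the 6, mostly from MITF, was 107 to 119 CPM in SLNCR libraries and 90.8 to 110 CPM in empty vector libraries. The sums of 4 fibroblast markers were 1.62 to 2.4 CPM and 0.991 to 1.97 CPM in the same order of groups, and those of 2 leukocyte markers, nearly all from CD68, were 109 to 134 CPM and 112 to 113 CPM. Transcripts of mitochondrial DNA, among them the ribosomal RNAs with which these proteins assemble, had no row among the tested genes and were not analysed here.

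Mitochondrial ribosomal protein genes were expressed at moderate levels and differed little between the groups. Of the 77 tested members, 5 were higher with SLNCR (6.49%), 10 fell (13%) and 62 missed an edgeR adjusted p of 0.05. Over all tested genes 8.84% were higher and 7.67% lower. The changes were small: the higher members were 1.14-fold to 1.28-fold and the lower ones 0.644-fold to 0.839-fold of the empty vector level. The median log2 fold change of the members was -0.07 (interquartile range -0.23 to 0.03), against -0.01 over all tested genes, and 51 members lay below 0 and 26 above. Every SLNCR library lay above every empty vector library for 9 members, where 19.7% of all tested genes did so, and below for 21 members, where 19.1% of all tested genes did so. These calls depended on single libraries. Without SLNCR replicate 1, empty vector replicate 1 or empty vector replicate 2, 0 members passed (20, 18 and 23 had an unadjusted edgeR p under 0.05, as did 28.4%, 22.9% and 26.7% of all tested genes), and over all genes 1, 1 and 2 passed. Over the 15 called members, the edgeR adjusted p then lay between 0.0543 and 0.171, between 0.106 and 0.221, and between 0.0804 and 0.158. Without SLNCR replicate 2, 5 members were higher and 18 lower, and over 12873 tested genes 1722 were higher and 1644 lower. Without SLNCR replicate 3, 2 members were higher and 6 lower, and over 13030 tested genes 807 and 710. Without empty vector replicate 3, 2 members were higher and 9 lower, and over 13004 tested genes 1007 and 877. With the GC correction 0 members passed, as did 0.0156% of all tested genes, and 24 of the 77 members had an unadjusted edgeR p under 0.05, against 15.1% of all tested genes.

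**Figure D1:**
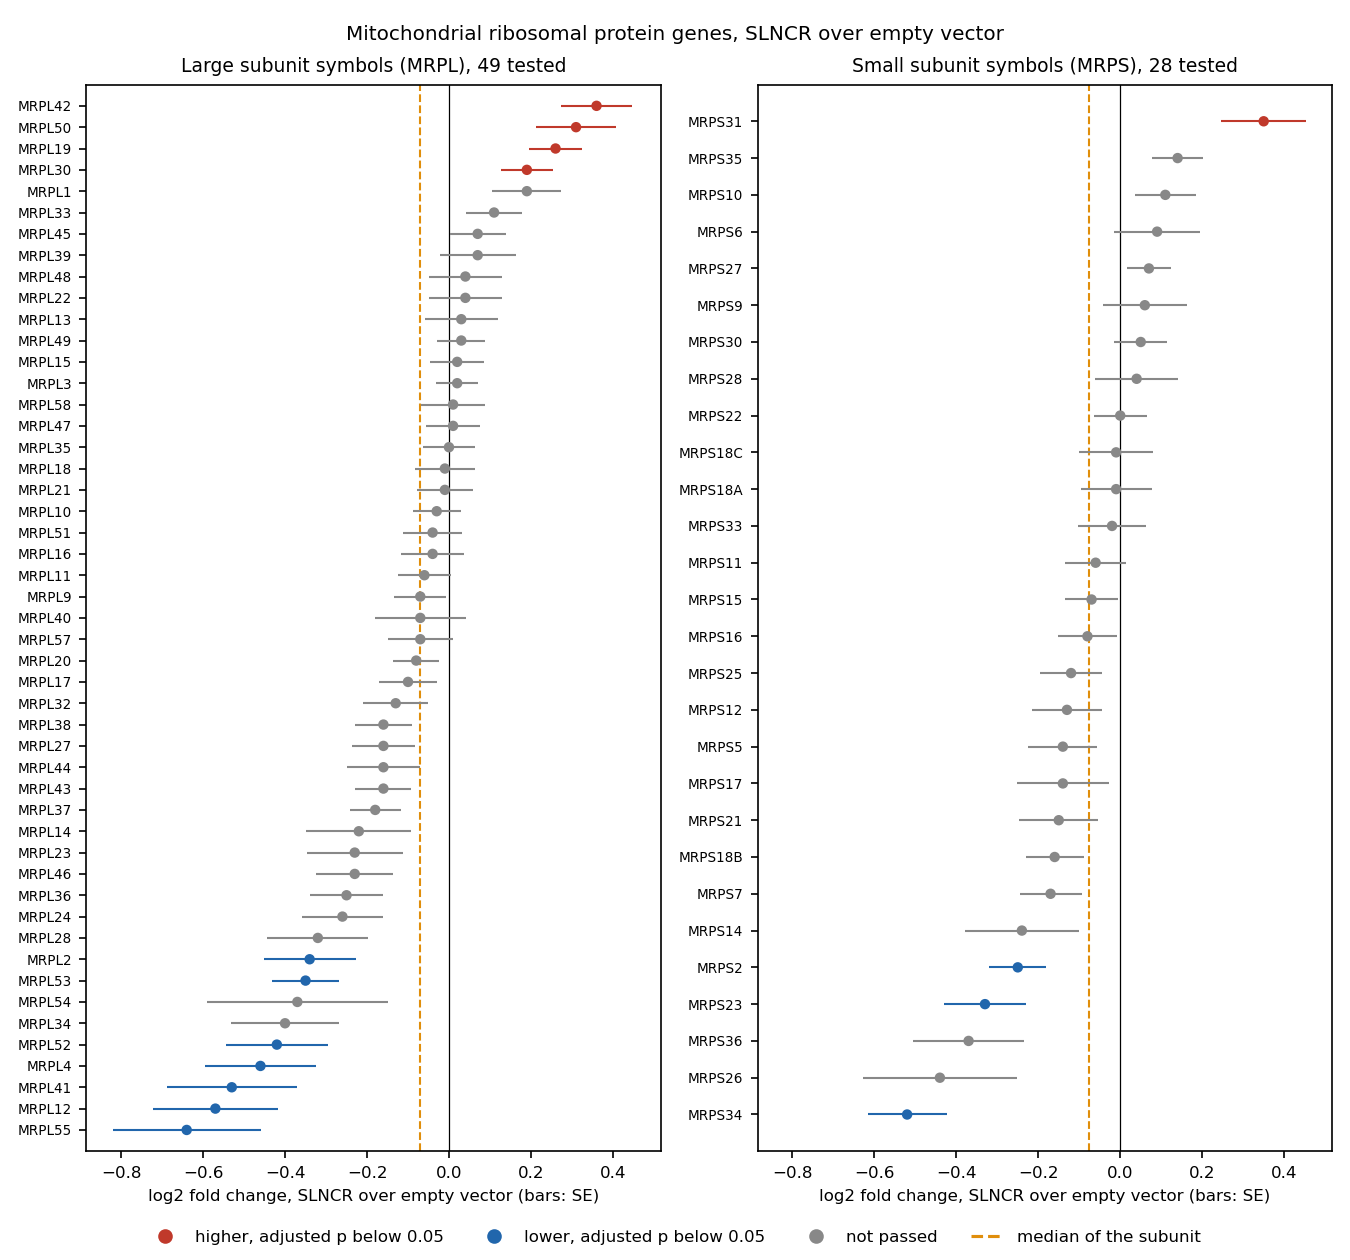
Log2 fold change, SLNCR over empty vector, of each tested member (points, with SE as bars; n = 3 libraries per group), large subunit symbols on the left and small subunit symbols on the right. Members past an edgeR adjusted p of 0.05 are red (higher) or blue (lower). The dashed lines mark the subunit medians of -0.07 and -0.08, and the values run from -0.64 (MRPL55) to 0.36 (MRPL42).

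The large and the small subunit had nearly the same median. Among 49 tested large subunit symbols 4 rose, 7 fell and 38 did not pass, with a median log2 fold change of -0.07. Among 28 tested small subunit symbols 1 rose, 3 fell and 24 did not pass, with a median of -0.08. The medians differed by 0.01. In single libraries, the mean log2 CPM of large minus that of small subunit symbols is a different quantity. Its SD between libraries of 1 group was 0.012 (pooled, n = 3 per group). Assigning MRPS18A and MRPS30 to the large subunit and leaving MRPS36 out gave medians of -0.07 for 51 genes and -0.08 for 25 genes. Transcripts of large subunit symbols were richer in GC, with a median of 50.7% against 46.2% for small subunit symbols. With the GC correction the large subunit median was -0.05 and the small subunit median -0.11, and 30 of 49 large and 23 of 28 small subunit symbols then lay below 0. A further correction for transcript length put the medians at -0.02 and -0.11. The gap between the corrected medians depended on which transcript stood for the gene: with the GC content of the principal transcript they were -0.06 and -0.07.

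Summed over all members, the groups nearly met. Large subunit symbols summed to 2822, 2855 and 2807 CPM in SLNCR libraries, against 2965, 2869 and 2860 CPM in empty vector libraries. Small subunit symbols summed to 1372, 1421 and 1330 CPM in SLNCR libraries, against 1508, 1438 and 1424 CPM in empty vector libraries. Both sums were lower in each SLNCR library than in each empty vector library, by little in SLNCR replicate 2. The ratio of the large to the small sum was 2.06, 2.01 and 2.11 in SLNCR libraries and 1.97, 2 and 2.01 in empty vector libraries, so that it was at least as high in each SLNCR library. In all, members took 0.42%, 0.428% and 0.412% of the counts in SLNCR libraries and 0.442%, 0.432% and 0.43% in empty vector libraries. Their mean deviation from the empty vector mean on the log2 scale was -0.10, -0.05 and -0.17 across SLNCR replicates 1, 2 and 3. The same quantity was -0.08, 0.02 and -0.20 for 6 non-coding RNAs read for RNA quality and -0.13, -0.06 and -0.29 for cytosolic ribosomal protein genes. With the GC correction the median of the members was -0.08, and the part of RNA quality was not tested. In bulk RNA a smaller share of cells with a transcript and less of it per cell cannot be told apart.

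Members were also split by the names of their proteins in structures, as counterparts of a bacterial protein or as specific to mitochondria. MRPS18A and MRPS18B count as specific to mitochondria in that scheme, although they are relatives of a bacterial protein. Of 45 tested members with a bacterial counterpart 2 were higher and 5 lower, and of 31 named as specific to mitochondria 3 were higher and 5 lower, each with a median of -0.07. Cytosolic ribosomal protein genes, whose products form the other ribosome of the cell, had a median log2 fold change of -0.14 over 80 tested genes, with 1 higher and 14 lower, and of -0.13 with the GC correction. Members reached -0.08 with that correction. Across the 77 members, the 45 that overlap no other gene of the table in the annotation had a median of -0.06, with 4 higher and 8 lower. This matters for the counts because the strand setting of the counter is not given in the sources used here. Among members named below, MRPL11, MRPL32, MRPL33, MRPL37, MRPL47, MRPS14 and the MRPS18 paralogs also lie opposite another gene of the table. Genes without a row in the table were not counted as overlapping. MRPL12, MRPL30 and MRPL42 are among the members that share a strand with such a gene.

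Among the proteins of the stalk, the arm of the large subunit that recruits translation factors, MRPL12 fell. MRPL12 (ENSG00000262814, chromosome 17, 81703357 to 81707526) encodes the stalk protein itself and was measured at 39.8, 39.4 and 26.5 CPM in SLNCR replicates 1, 2 and 3, against 61.1, 49.9 and 46.6 CPM in empty vector replicates 1, 2 and 3. All SLNCR libraries were below all empty vector libraries, and SLNCR replicate 3 was the lowest. On the log2 scale MRPL12 stood at -0.57 (SE 0.153, edgeR adjusted p = 0.0350), and with the GC correction at -0.31 (adjusted p = 0.168). MRPL10, which anchors the stalk, did not pass, at 96.7, 95.3 and 92.5 CPM in SLNCR libraries and 96.2, 95.9 and 97.6 CPM in empty vector libraries (log2 fold change -0.03, SE 0.0587). MRPL11, of the stalk base, had 66.0, 66.0 and 63.7 CPM in SLNCR libraries and 67.6, 68.1 and 69.1 CPM in empty vector libraries (-0.06, SE 0.0637). The difference in fold change between the 3 genes was not tested.

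MRPL4 and MRPL2 of the large subunit were also lower, and MRPL3 and MRPL58 did not pass. MRPL4, a protein of the exit tunnel, had 43.7, 49.4 and 31.0 CPM in SLNCR libraries and 61.4, 56.9 and 52.8 CPM in empty vector libraries, with a log2 fold change of -0.46 (SE 0.135, adjusted p = 0.0434, GC-corrected -0.19). MRPL2, of the peptidyl transferase region, had 25.8, 30.9 and 22.9 CPM in SLNCR libraries and 37.3, 34.8 and 29.2 CPM in empty vector libraries (-0.34, SE 0.112, adjusted p = 0.0461, GC-corrected -0.21). Here SLNCR replicate 2 lay above empty vector replicate 3, so the groups overlapped. MRPL2 lies opposite KLC4, and with the strand setting not given, whether the reads of the pair were kept apart is not known. MRPL3, the most abundant member per kilobase of longest transcript, did not pass, with 201, 201 and 195 CPM in SLNCR libraries and 197, 195 and 197 CPM in empty vector libraries (0.02, adjusted p = 0.840). MRPL58, a peptidyl-tRNA hydrolase with a release factor fold that became part of the ribosome, had 39.4, 37.0 and 37.6 CPM in SLNCR libraries and 35.9, 40.1 and 37.4 CPM in empty vector libraries, which overlap (0.01, SE 0.0785).

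The largest fall belonged to the weakly expressed MRPL55, which keeps a bacterial counterpart. It was counted at 60, 62 and 44 reads in SLNCR libraries and 108, 62 and 74 reads in empty vector libraries, or 5.7, 5.96 and 4.9 CPM against 10.8, 6.83 and 8.1 CPM. SLNCR replicate 2 and empty vector replicate 2 had the same raw count and separated only after scaling. The log2 fold change was -0.64 (SE 0.181, adjusted p = 0.0278, GC-corrected -0.44). MRPL53 fell with little spread, at 29.9, 30.7 and 26.9 CPM in SLNCR libraries and 37.6, 36.8 and 37.2 CPM in empty vector libraries (-0.35, SE 0.0821, adjusted p = 0.0159, GC-corrected -0.27), though it overlaps CCDC142 on the same strand. MRPL52 had 15.8, 17.7 and 12.4 CPM in SLNCR libraries and 21.7, 18.4 and 21.6 CPM in empty vector libraries (-0.42, SE 0.125, adjusted p = 0.0319, GC-corrected -0.48). MRPL52 and MRPL53 exist only in mitochondrial ribosomes, as does MRPL41. MRPL41 had 17.5, 23.0 and 14.9 CPM in SLNCR libraries and 32.2, 25.9 and 22.2 CPM in empty vector libraries (-0.53, SE 0.158, adjusted p = 0.0388, GC-corrected -0.16), and SLNCR replicate 2 lay above empty vector replicate 3.

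The higher members of the large subunit were MRPL42, MRPL50, MRPL19 and MRPL30. MRPL42 (ENSG00000198015, chromosome 12, 93467488 to 93516213), a protein found only in mitochondrial ribosomes, had 123, 110 and 148 CPM in SLNCR libraries and 98.4, 94.4 and 104 CPM in empty vector libraries. Every SLNCR library was above every empty vector library, and SLNCR replicate 3 was the highest. Its log2 fold change was 0.36 (SE 0.0868, adjusted p = 0.0174, GC-corrected 0.16). MRPL50 had 49.1, 39.9 and 55 CPM in SLNCR libraries and 37.6, 38.7 and 39.8 CPM in empty vector libraries (0.31, SE 0.0983, adjusted p = 0.0429, GC-corrected 0.05), and SLNCR replicate 2 only just cleared empty vector replicate 3. The bacterial-type protein gene MRPL19 had 199, 194 and 234 CPM in SLNCR libraries and 175, 173 and 177 CPM in empty vector libraries (0.26, SE 0.0653, adjusted p = 0.0189, GC-corrected 0.06), and it lies opposite GCFC2. MRPL30 had 91.6, 85.0 and 89.0 CPM in SLNCR libraries and 76.2, 76.2 and 80.4 CPM in empty vector libraries (0.19, SE 0.063, adjusted p = 0.0482, GC-corrected 0.09). Named pseudogenes in GENCODE can share reads with some of these genes. Of the 5 higher members 4 have one or more (12 pseudogenes in all). So do 2 of the 10 lower members and 28 of the 62 others. Of the 75 pseudogenes named after members, 2 had a row in the table, and sharing of reads was not tested.

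In the small subunit MRPS34 showed the smallest adjusted p of all members. MRPS34 (ENSG00000074071, chromosome 16, 1771890 to 1773155) encodes a protein found only in mitochondrial ribosomes and is known from inherited deficiency of mitochondrial translation. It was at 61.8, 67.9 and 49.3 CPM in SLNCR libraries and 93.5, 82.7 and 80.9 CPM in empty vector libraries, with no overlap (log2 fold change -0.52, SE 0.0965, adjusted p = 0.0137, GC-corrected -0.25). MRPS2, which keeps a bacterial counterpart, had 82.1, 96.6 and 84.3 CPM in SLNCR libraries and 110, 103 and 101 CPM in empty vector libraries (-0.25, SE 0.0698, adjusted p = 0.0249, GC-corrected -0.03). MRPS23 had 37.7, 43.2 and 30.7 CPM in SLNCR libraries and 50.4, 45.3 and 45.3 CPM in empty vector libraries (-0.33, SE 0.101, adjusted p = 0.0367, GC-corrected -0.40). The higher member was MRPS31, also specific to mitochondrial ribosomes, at 28.4, 25.8 and 33.9 CPM in SLNCR libraries and 22.9, 23.1 and 22.8 CPM in empty vector libraries (0.35, SE 0.103, adjusted p = 0.0310, GC-corrected 0.18). The empty vector libraries were close together and the SLNCR libraries all lay above them.

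Genes of the decoding region and the MRPS18 family did not pass. MRPS12, whose protein lines the decoding centre, had 53.3, 63.3 and 52.5 CPM in SLNCR libraries and 63.9, 66.1 and 55.7 CPM in empty vector libraries (log2 fold change -0.13, SE 0.0854). MRPS7, of the small subunit head, had 53.4, 61.1 and 55.4 CPM in SLNCR libraries and 66.6, 58.9 and 66.0 CPM in empty vector libraries (-0.17, SE 0.0757). The groups overlapped for both, and both lie opposite other genes of the table. The paralogs MRPS18A, MRPS18B and MRPS18C are relatives of 1 bacterial protein that occupy different places in the particle. MRPS18A had 33.8, 29.7 and 35.6 CPM in SLNCR libraries and 33.4, 32.7 and 33.4 CPM in empty vector libraries, at a log2 fold change of -0.01. MRPS18C had 29.8, 25.9 and 30.3 CPM in SLNCR libraries and 27.7, 30.4 and 28.2 CPM in empty vector libraries, likewise at -0.01. MRPS18B had 65.1, 66.1 and 59.5 CPM in SLNCR libraries and 74.2, 72.4 and 66.4 CPM in empty vector libraries, which do not overlap, at -0.16 (SE 0.0706, adjusted p = 0.121). With the GC correction the 3 stood at 0.16 (MRPS18A, 57.3% GC), -0.10 (MRPS18B, 51.2% GC) and -0.19 (MRPS18C, 38.9% GC), and 0 of them passed.

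**Figure D2:**
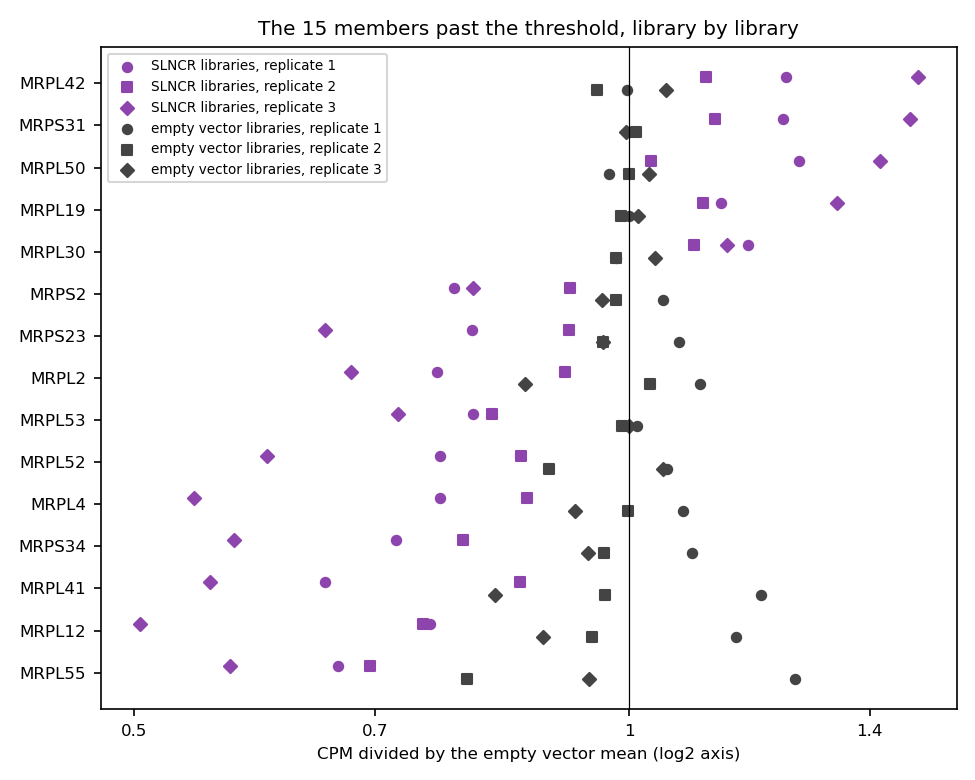
CPM of each of the 15 members past the threshold, divided by the mean of the empty vector libraries (log2 axis), with 1 point per library. SLNCR libraries (purple, upper row of each gene) and empty vector libraries (dark grey, lower row) do not overlap for 13 of the 15 genes, MRPL2 and MRPL41 being the exceptions, and SLNCR replicate 2 often lies nearest to the empty vector.

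Among the called members, those that rose had a lower GC content than those that fell. The longest transcripts of the 5 higher members had 35.0% to 43.2% GC and those of the 10 lower members 44.6% to 71.9%. Those of the 62 members that did not pass spanned 33.5% to 65.2%. In the coding sequence the third codon position, where most changes leave the amino acid as it is, held 30.1% to 44.0% G or C in the higher members. It held 51.8% to 90.6% in the lower ones and 28.8% to 89.3% in those that did not pass. The first 150 coding bases of 2 higher members (MRPL42 and MRPL50) and 2 lower members (MRPL12 and MRPL41) show this contrast. They are taken from the principal transcripts of GENCODE 29 (GRCh38), with G and C in capitals, which make up 36.7%, 46.7%, 69.3% and 73.3% of the bases.
MRPL42: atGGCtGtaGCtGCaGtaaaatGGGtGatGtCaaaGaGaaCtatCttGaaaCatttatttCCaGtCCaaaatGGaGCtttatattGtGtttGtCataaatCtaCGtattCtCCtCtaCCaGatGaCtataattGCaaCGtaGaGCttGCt
MRPL50: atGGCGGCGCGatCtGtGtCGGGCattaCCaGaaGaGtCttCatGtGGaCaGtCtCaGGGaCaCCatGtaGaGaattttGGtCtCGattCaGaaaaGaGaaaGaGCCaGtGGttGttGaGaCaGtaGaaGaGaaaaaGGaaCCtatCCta
MRPL12: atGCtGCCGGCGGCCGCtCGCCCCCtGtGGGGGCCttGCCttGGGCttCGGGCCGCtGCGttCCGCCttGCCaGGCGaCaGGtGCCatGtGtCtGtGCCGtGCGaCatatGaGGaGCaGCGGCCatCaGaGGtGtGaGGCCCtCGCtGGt
MRPL41: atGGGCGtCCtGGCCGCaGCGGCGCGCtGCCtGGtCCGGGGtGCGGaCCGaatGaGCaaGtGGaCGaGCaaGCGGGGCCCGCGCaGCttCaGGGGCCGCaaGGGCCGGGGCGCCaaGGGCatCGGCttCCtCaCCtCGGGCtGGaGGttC

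Across the 77 members the log2 fold change ran against the GC content of the longest transcript, with r = -0.66 (Spearman's rho = -0.65). Over the 12790 tested genes with a GC value r was -0.64 (rho = -0.69). Genes share the same 6 libraries and are not independent replicates, so these are descriptions. Of the 13 members under 40% GC, 4 were higher and 0 lower, where 33.5% of all genes of that range were higher and 0.187% lower. The median of these members was 0.03, against 0.21 for all genes of that range. Of the 11 members at 60% GC or more, 0 were higher and 5 lower, where 0.058% of all genes of that range were higher and 29.7% lower. The median of these members was -0.37, against -0.25 for all genes of that range. Between 45% and 50% GC, 0 of 14 members passed with edgeR, where 1.78% of all genes were higher and 2.45% lower. The members' median there was -0.07 against 0.01 for all genes. The members' median thus lay below that of all genes in the lowest and the highest range. Between 40% and 45% GC it was 0.04 for 17 members, against 0.12 for all genes. Between 50% and 55% GC it was -0.07 for 13 members, against -0.08. These ranges rest on the longest transcript. MRPL13, MRPL32 and MRPS30, under 40% GC on it, have 42.2%, 45.6% and 46.4% on the principal transcript. MRPL36 has 65.2% on the longest and 52.9% on the principal one. The lowest range also holds MRPS36, which is no ribosomal protein. Between 55% and 60% GC the medians were close, at -0.16 for 9 members and -0.17 for all genes.

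**Figure D3:**
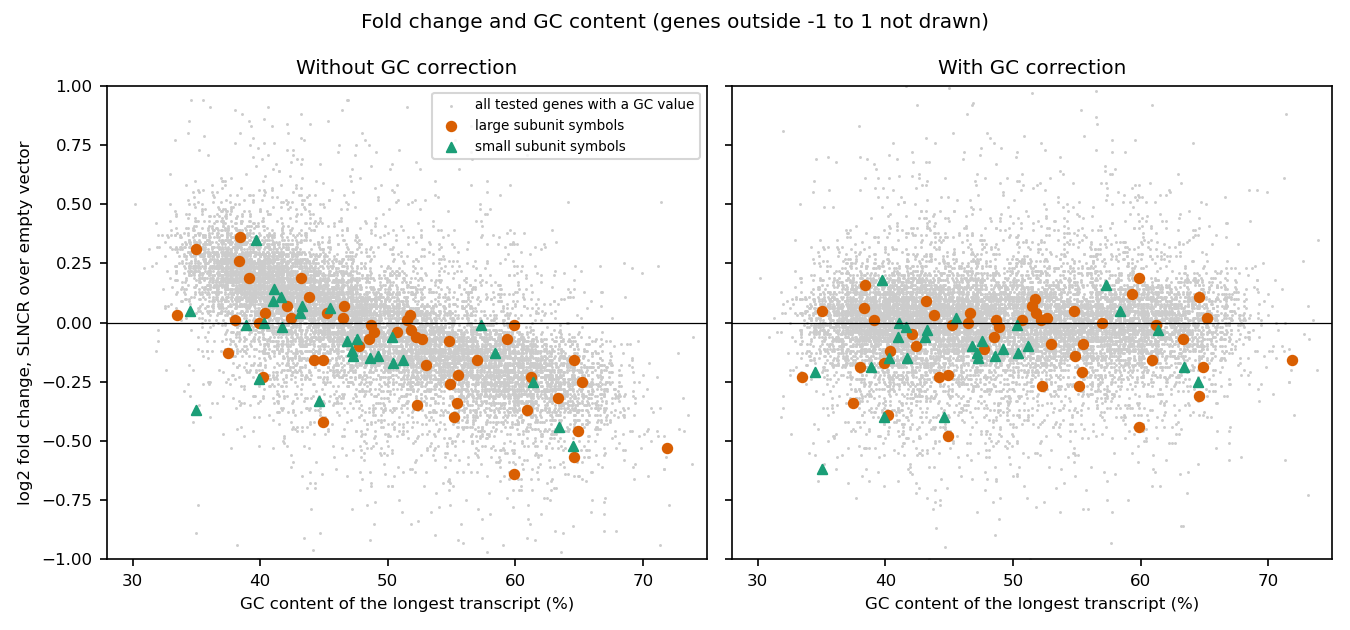
Log2 fold change, SLNCR over empty vector, against the GC content of the longest transcript, without (left) and with (right) the GC correction. Large subunit symbols are orange circles, small subunit symbols green triangles and all tested genes grey points. The members follow the slope of all genes on the left (r = -0.66), and on the right their values run from -0.62 (MRPS36) to 0.19 (MRPL21).

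With the GC correction the 5 higher members stood at 0.05 to 0.18 (adjusted p from 0.217 to 0.785) and the 10 lower members at -0.48 to -0.03 (adjusted p from 0.0888 to 0.829). MRPS2 went to -0.03 and MRPL50 to 0.05. MRPL52 stood at -0.48 and MRPS23 at -0.40, both with under 45% GC on the longest transcript and lower than before the correction. For MRPL52 this depended on the transcript. Its principal transcript has 52.3% GC, and the correction on principal transcripts put it at -0.36, against -0.42 with no correction. MRPS34 stood at -0.25 (SE 0.0642, adjusted p = 0.0888). Some members that had not been called moved further from 0. MRPL32, named for its smallest adjusted p among members with the correction (0.0609), was at -0.13 before and -0.34 after it. Its longest transcript has 37.5% GC and its principal transcript 45.6%. MRPS36, which is no ribosomal protein, was at -0.37 before it (adjusted p = 0.0656) and at -0.62 after it (adjusted p = 0.0623). It was measured at 7.89, 9.13 and 8.57 CPM in SLNCR libraries and 12.2, 11 and 9.85 CPM in empty vector libraries, which do not overlap. Both genes were chosen after their values were seen. In the corrected fit 53 members lay below 0 and 24 above.

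Levels of the members, whose products stand in fixed proportions in the particle, spread widely. Per kilobase of the principal transcript, large subunit symbols ranged from 4.55 to 180 CPM in SLNCR libraries, a 39.6-fold span. In empty vector libraries they ranged from 6.34 to 190 CPM, a 30.0-fold span. The ends of the latter are MRPL42, with a principal transcript of 15582 bases, and MRPL20, with one of 721 bases. Small subunit symbols ranged from 4.59 to 70.3 CPM per kilobase in SLNCR libraries and from 5.42 to 83.7 in empty vector libraries. The median level of large subunit symbols was 35.2, 33.9 and 31.8 CPM per kilobase in SLNCR libraries, against 37.9, 38.3 and 36.9 in empty vector libraries. That of small subunit symbols was 24.9, 25.2 and 22.2 CPM per kilobase in SLNCR libraries, against 25.6, 23.4 and 25.5 in empty vector libraries. The typical large subunit symbol was therefore above the typical small subunit symbol in each library.

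The order of the members depended on the transcript that stood for the gene. Per kilobase of longest transcript MRPL3 was highest, at 116 ± 2.04 CPM in SLNCR libraries and 115 ± 0.833 CPM in empty vector libraries (SD, n = 3 each). Among large subunit symbols MRPL20, which keeps a bacterial counterpart, followed at 76.6 and 80.7 CPM per kilobase. MRPL47 came next in empty vector libraries, at 75.8 in SLNCR and 75.3 in empty vector libraries, whereas in SLNCR libraries MRPL33 was just above it (75.9 and 70.3). On the principal transcript MRPL20 led at 180 and 190 CPM per kilobase. Among small subunit symbols MRPS34 led, at 57.4 and 82.4 CPM per kilobase of longest transcript, and MRPS2 was next in empty vector libraries, with 53.5 in SLNCR and 63.7 in empty vector libraries. MRPS35, which stood above MRPS2 in SLNCR libraries, had 55.4 and 50.2 and MRPS12 had 46.2 and 50.7, with standard deviations of 1.32 to 4.93, so in empty vector libraries their order was within the spread. The lowest 5 tested members by empty vector libraries were MRPL46 (4.15 and 4.84), MRPS14 (4.59 and 5.42), MRPS6 (5.07 and 4.78), MRPL55 (3.88 and 6.02) and MRPL42 (8.16 and 6.34), each with the SLNCR value first and the empty vector value after it. In SLNCR libraries MRPS23 (6.62), MRPS36 (6.63), MRPS33 (6.76) and MRPL52 (7.56) lay below MRPL42. The length counts in such a value: the longest transcript of MRPL42, also its principal one, has 15582 bases. That of MRPL46 has 5561 bases and its principal transcript 1019 bases, and per kilobase of the principal transcript MRPL46 reached 22.6 and 26.4 CPM. In single libraries, MRPL20 had 127, 126 and 135 CPM with SLNCR and 137, 137 and 136 CPM with the empty vector, and MRPL47 had 97.4, 104 and 110 CPM and 103, 97.0 and 109 CPM. MRPL46 had 22.2, 24.1 and 22.8 CPM with SLNCR and 29.4, 26.4 and 25 CPM with the empty vector, with no overlap. MRPS35 did not overlap either, at 110, 101 and 103 CPM with SLNCR and 96.9, 92.1 and 95.7 CPM with the empty vector, and its log2 fold change of 0.14 did not pass (adjusted p = 0.109). The groups overlapped for MRPS14 (8.37, 11.4 and 9.35 CPM with SLNCR, 11.5, 10.8 and 12.1 CPM with the empty vector). They also met for MRPS6, which shares a strand with SLC5A3 (22.0, 18.2 and 19.7 CPM with SLNCR, 18.7, 18.2 and 19.6 CPM with the empty vector).

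MRPS24 was counted at 0, 4 and 0 reads in SLNCR libraries and 0, 1 and 0 reads in empty vector libraries and was not tested. GENCODE holds a read-through gene over it on the same strand, whose part in this low count was not tested.

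**Figure D4:**
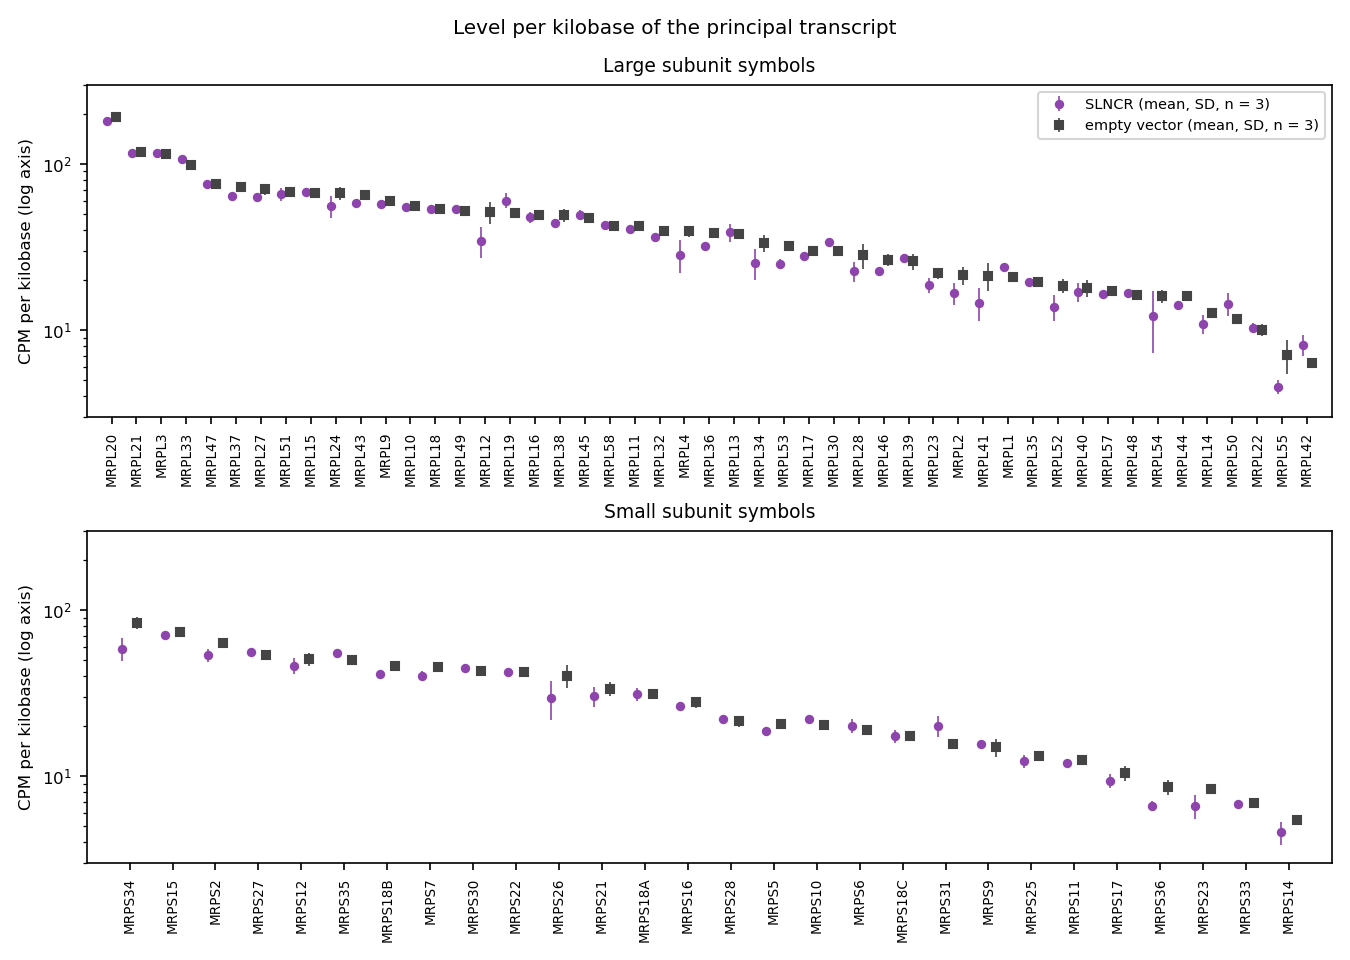
Level of each tested member in CPM per kilobase of its principal transcript (log axis; points are means and bars SD of 3 libraries), SLNCR in purple to the left and empty vector in dark grey, with large subunit symbols above and small subunit symbols below. Members differ among themselves 30.0-fold (large) and 15.4-fold (small) in empty vector libraries, far more than the groups differ for any member. The large span runs from MRPL42 to MRPL20, whose principal transcripts have 15582 and 721 bases. MRPS24, with 5 reads in all, is left out.

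Promoters of the members carried matches to ETS and YY1 motifs in a larger share than promoters at large, which is a description with no test. RefSeq windows (GRCh38.p14) of 250 bases before to 50 after the start were at hand for 69 members and for 15843 protein-coding genes, and both strands were searched. The ETS motif CCGGAAG, of the kind bound by GABPA, was found in 29 of 69 member promoters (42.0%) and in 14.2% of all. The YY1 motif AAGATGGC was found in 20 (29%) and in 3.9% of all. The NRF1 motif CGCANGCG, read by a factor named for nuclear genes of respiration, occurred in 13 (18.8%) against 14.3%, and CCAAT in 20 (29%) against 36.4%. The E2F motif TTTNGCGC, of interest because the study concerns SLNCR and E2F1, occurred in 3 member promoters (MRPL37, MRPL18 and MRPS7; 4.3%) and in 2.4% of all. The median GC content of the windows was 60.3% for members and 62.7% for all. No motif contains another, and a match does not show that a factor binds.

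Matches to ETS and YY1 mostly lay near the start. Of the 29 ETS promoters 24 had a match within 50 bases of it. Of the 20 YY1 promoters 16 did. Over all 20, the match nearest the start lay after it in 15 and on the strand of the gene in 16. The YY1 motif contains ATG, and matches at the start of a coding sequence were not told apart from others. Large and small subunit symbols had ETS matches in 40.5% and 44.4% of promoters and YY1 matches in 28.6% and 29.6%. The higher members had an ETS match in 2 of 5 promoters and a YY1 match in 2 of 5. The lower ones had them in 4 and 1 of 9 promoters. With so few promoters, no difference between called groups was read from this. The 3 genes with an E2F match did not pass, at -0.18 (MRPL37), -0.01 (MRPL18) and -0.17 (MRPS7).

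Windows of 5 members show these layouts, with matches to the ETS, YY1, NRF1 and E2F motifs in capitals, CCAAT left in lower case and the start at base 251. MRPL42, the most increased member, has a YY1 match just after the start (chr12:93467264-93467563, plus strand). MRPL46, which shares its start region with MRPS11, has one at the same distance (chr15:88467339-88467638, minus strand). MRPL30 has an ETS and an NRF1 match (chr2:99180934-99181233, plus strand), MRPS34 has 3 ETS matches (chr16:1773085-1773384, minus strand), and MRPL37 has an NRF1 and an E2F match besides 2 CCAAT matches (chr1:54199917-54200216, plus strand). The ETS match in MRPL30 and MRPS34 lies on the opposite strand and reads as CTTCCGG.
MRPL42: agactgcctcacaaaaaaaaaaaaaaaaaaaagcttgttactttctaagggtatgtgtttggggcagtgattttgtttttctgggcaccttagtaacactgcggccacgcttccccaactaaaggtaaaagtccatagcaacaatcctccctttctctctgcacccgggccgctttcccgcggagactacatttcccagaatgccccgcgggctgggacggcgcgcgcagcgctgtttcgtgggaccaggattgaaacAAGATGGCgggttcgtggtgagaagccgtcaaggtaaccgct
MRPL46: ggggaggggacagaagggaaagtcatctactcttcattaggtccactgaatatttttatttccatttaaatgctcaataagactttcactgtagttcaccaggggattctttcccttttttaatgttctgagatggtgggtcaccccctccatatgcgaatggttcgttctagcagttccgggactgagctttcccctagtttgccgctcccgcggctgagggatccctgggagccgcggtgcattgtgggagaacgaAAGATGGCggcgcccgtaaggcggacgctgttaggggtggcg
MRPL30: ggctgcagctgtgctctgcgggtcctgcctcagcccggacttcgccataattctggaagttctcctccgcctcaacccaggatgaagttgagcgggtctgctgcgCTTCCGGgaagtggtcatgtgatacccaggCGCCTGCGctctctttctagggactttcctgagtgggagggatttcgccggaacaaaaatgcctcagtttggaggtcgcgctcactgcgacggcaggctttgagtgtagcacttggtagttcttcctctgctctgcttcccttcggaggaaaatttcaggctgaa
MRPS34: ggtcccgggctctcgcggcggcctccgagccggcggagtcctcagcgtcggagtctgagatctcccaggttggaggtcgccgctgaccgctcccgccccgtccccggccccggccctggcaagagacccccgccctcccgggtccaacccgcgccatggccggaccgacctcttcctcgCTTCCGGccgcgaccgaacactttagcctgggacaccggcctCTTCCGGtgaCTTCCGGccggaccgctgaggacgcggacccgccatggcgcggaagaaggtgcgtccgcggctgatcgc
MRPL37: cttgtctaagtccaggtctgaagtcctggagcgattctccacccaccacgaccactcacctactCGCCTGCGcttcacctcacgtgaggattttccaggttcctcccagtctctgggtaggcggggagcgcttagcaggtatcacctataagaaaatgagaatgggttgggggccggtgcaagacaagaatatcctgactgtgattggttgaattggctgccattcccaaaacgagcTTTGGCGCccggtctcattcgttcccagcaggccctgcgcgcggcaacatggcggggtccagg

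**Figure D5:**
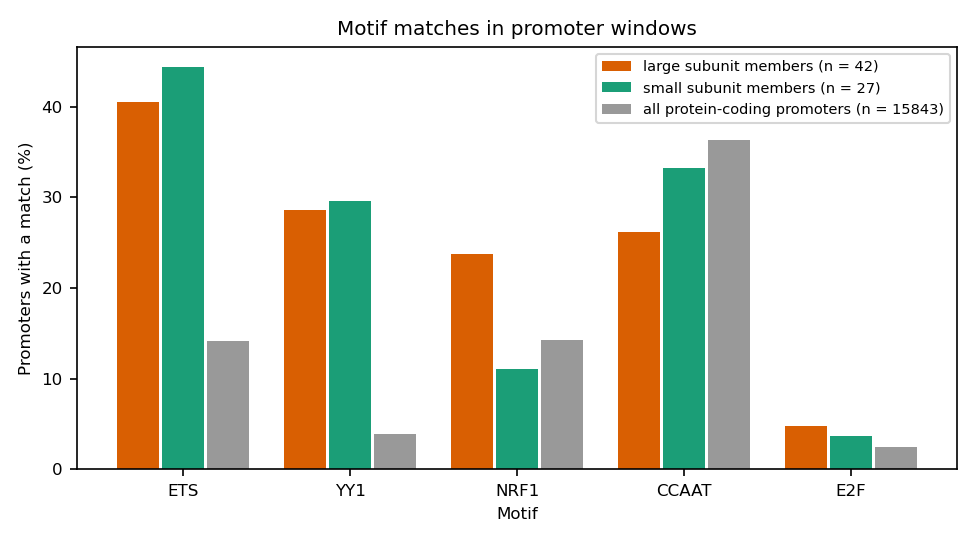
Share of promoter windows with at least 1 match to each motif (bars from 0, percent) for large subunit members (n = 42), small subunit members (n = 27) and all protein-coding promoters (n = 15843). ETS and YY1 matches stand above all promoters for both subunits.

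Many members start beside another gene. A protein-coding gene ran in the opposite direction from within 1000 bases of the start for 18 of the 78 members (23.1%), against 8.2% of 19951 protein-coding genes. MRPL46 and MRPS11, a large and a small subunit gene, start 34 bases apart, and their log2 fold changes were -0.23 (adjusted p = 0.0985) and -0.06 (adjusted p = 0.594). MRPL47 starts 36 bases from NDUFB5, a subunit of respiratory complex I. NDUFB5 was higher with SLNCR (0.26, adjusted p = 0.0283), while MRPL47 stood at 0.01, and with the GC correction they stood at 0.09 and -0.19. MRPS34 and its neighbour EME2, 52 bases away, had -0.52 and -0.35 (adjusted p = 0.105 for EME2) and 64.5% and 65.4% GC. Sharing a start region thus went with both like and unlike fold changes.

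Other genes of mitochondrial translation also changed in both directions. Of 5 mitoribosome proteins with other symbols, PTCD3 was higher (0.26, adjusted p = 0.0289, GC-corrected 0.16), and AURKAIP1 (-0.53, adjusted p = 0.0347, GC-corrected -0.22) and GADD45GIP1 (-0.40, adjusted p = 0.0170, GC-corrected -0.20) were lower. DAP3, a GTP-binding protein of the small subunit, stood at 0.03. PTCD3 has 43.1% GC and AURKAIP1 67.9%. Among 14 translation factors, GFM2 (0.21, GC-corrected 0.11), MTRF1L (0.29, GC-corrected 0.16) and LRPPRC (0.24, GC-corrected 0.12) were higher, and the elongation factor gene TUFM was lower. TUFM averaged 196 ± 23.1 CPM in SLNCR libraries and 241 ± 13.4 CPM in empty vector libraries (SD, n = 3 each; -0.29, adjusted p = 0.0181, GC-corrected -0.13). Among 26 assembly and ribosomal RNA modification factors, MTERF3 (0.39, GC-corrected 0.25), FASTKD2 (0.29, GC-corrected 0.06) and GTPBP10 (0.32, GC-corrected 0.08) were higher and 0 were lower with edgeR, where 23 did not pass.

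Regulators of nuclear genes for mitochondria were split as well. Of 12, GABPA and GABPB1, the subunits of the ETS factor named above, were higher at 0.29 each (adjusted p = 0.0185 and 0.0209). TFAM, the packaging and transcription factor of mitochondrial DNA, was higher at 0.25 (adjusted p = 0.0176), and POLRMT, the mitochondrial RNA polymerase, was lower at -0.26 (adjusted p = 0.0330). NRF1 (-0.15), YY1 (0.05) and MYC (-0.03) did not pass. GABPA has 36.4% GC and POLRMT 66.3%, and with the GC correction these 4 genes stood at 0.06, 0.10, 0.06 and 0.04. The corrected fit called 0 genes of these 4 lists, and over the lists 3 of 5, 6 of 14, 5 of 26 and 0 of 12 genes had an unadjusted edgeR p under 0.05 in it, against 15.1% of all tested genes. Without the correction, the share of higher genes was 20% of the 5 mitoribosome proteins, 21.4% of the 14 translation factors, 11.5% of the 26 assembly factors and 25% of the 12 regulators, against 8.84% of all tested genes. The share of lower genes was 40%, 7.14%, 0% and 8.33% in the same order of lists, against 7.67% of all tested genes.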

How the data were processed

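The authors deposited whole-number counts of reads for each gene, not normalized, for 3 SLNCR and 3 empty vector libraries. Build GRCh38 and the tools STAR, cutadapt and DESeq2 1.24.07 are named, per the submitters' processing notes. How reads were counted, with which annotation and strand setting, is not given in the sources used here.

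Of 20238 rows, 1857 name no gene (2.15% to 2.59% of the counts) and were left out before scaling and testing. Runs of neighbouring rows with identical counts were reduced to 1 row, which removed 63 rows and 0 members. The comparison used the quasi-likelihood F-test of edgeR 4.0.16 (R 4.3.3; robust, TMM factors, filterByExpr), two-sided. Its p-values were Benjamini-Hochberg adjusted over 12797 genes and called below 0.05. The biological coefficient of variation was 5.65%. CPM values carry the TMM scaling, and logarithms were taken after adding a prior count of 2. The GC correction took from each library a loess curve (span 0.5) of log2 CPM deviation on the GC content of the longest transcript, as edgeR offsets. Like the fit, it was run on simulated counts with changes placed at random among genes. Such counts cannot show whether the correction also takes away real changes that follow GC content. Levels per kilobase used the longest transcript or the principal one (APPRIS tag) of GENCODE 29. Of the members, 20 have a longest transcript that is not protein coding.

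Members, lists, motifs and named genes were chosen with earlier results of these data known. Named were the called members (up to 10 in each direction), the 3 highest and 3 lowest per kilobase of each subunit, 12 chosen by role, and the 5 largest fold changes in each direction. Alternatives were other size factors, other filters, DESeq2 1.42.0, limma-voom (limma 3.58.1), the replicate number as a block, GC and length corrections, keeping identical rows, and leaving out each library. Added after seeing the data were the GC content of the principal transcript, the GC correction without SLNCR replicate 3, and subunits assigned by structure.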

Additional observations from a re-analysis of the deposited data

How the results depend on the processing

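The subunit medians kept their sign in all 19 alternative fits. They moved by less than 0.055 for the large and 0.052 for the small subunit. These bounds are the SD of a subunit's mean log2 CPM between libraries of 1 group. Counts of members depended on the fit. With DESeq2, 2 members were higher and 5 lower, and over 18318 genes 639 were higher and 428 lower. The GC correction, the GC and length correction and the GC correction on principal transcripts each left 0 higher and 0 lower (24, 24 and 20 members with an unadjusted edgeR p under 0.05, and 15.1%, 15.1% and 14.6% of all genes). The GC correction without SLNCR replicate 3 left 0 higher and 1 lower, and over 13030 genes 45 higher and 56 lower. Leaving out 1 library at a time gave 0 to 5 members higher and 0 to 18 lower, and over all genes 1 to 1722 higher and 0 to 1644 lower. Large minus small subunit medians were then 0 to 0.02. That difference of medians was 0.06 with the GC correction, 0.09 with the GC and length correction and 0.04 with the GC correction without SLNCR replicate 3. The labels do not state whether replicate numbers pair the libraries. Same-numbered deviations correlated at 0.04, 0.02 and 0.19, and those of unlike numbers at -0.17 to 0.14. Whether the libraries are paired was not tested. With the replicate block 5 members were higher and 16 lower, and over 12797 genes 1772 were higher and 1751 lower. The GC correction with replicate block gave 0 members higher and 8 lower, and over 12797 genes 161 higher and 246 lower. Its difference of medians was 0.06. Without a filter 14 members were lower, as were 1235 of 18318 genes, and with the stricter filter 12 members and 1048 of 10682 genes. MRPL50 turned to -0.005 under the GC correction without SLNCR replicate 3, and 11 other named members, called in neither fit, changed sign at least once (48 times in all). The cause of these differences was not tested. Members had at least 41 reads in each SLNCR and 62 in each empty vector library, apart from MRPS24, and counting error limits the 5 members with under 100 reads in a library.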
